A study of Mus musculus with 9 samples.

Results

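The myogenic regulatory factors are 4 related transcription factors of the basic helix-loop-helix (bHLH) class, Myf5, Myod1 (MyoD), Myf6 (MRF4) and Myog (myogenin), which direct cells of the embryonic somite into skeletal muscle. Every probe set annotated to one of these genes was taken, which gave 5 probe sets out of 45037 and 4 genes out of 18193. Myf5, Myf6 and Myog were each read by a single probe set (1420757_at, 1419150_at and 1419391_at). Myod1 was read by a pair, 1418420_at and 1447675_x_at, and the ending x_at marks probes that can match several transcripts. No member probe set was assigned to another gene as well.

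RNA came from sorted cells of interlimb somites of mouse embryos at day 9.5, cut to keep the hypaxial dermomyotome (the lateral epithelial layer that yields body wall muscle), and was hybridized to Affymetrix arrays, 3 per group. PAX3FKHR samples were GFP-positive cells of Pax3PAX3-FKHR/GFP embryos, in which one Pax3 allele encodes the fusion of PAX3 with the FKHR (FOXO1) activation domain and the other encodes GFP, so that no wild-type Pax3 allele is left. GFP+ samples were GFP-positive cells of Pax3GFP/+ embryos, which keep a wild-type Pax3 allele, and GFP- samples were the cells without GFP. The labels give no genotype for the GFP- samples. The study's text takes both sorted populations from Pax3GFP/+ embryos, whereas its list of hybridized groups names Pax3+/+. The floxed PAX3-FKHR allele was recombined by a maternal PGK-Cre transgene, so it was active wherever Pax3 is expressed, and tissue of many embryos of 1 genotype was pooled before sorting. The labels only number the replicates, and the study's methods call them biological, so the p-values measure the spread between pooled samples. A protocol field of the labels speaks of limb buds, whereas titles and tissue fields name somites.

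Myf5 and Myod1 are the determination factors that commit a progenitor to the muscle lineage, and in the mouse somite Myf5 is the first member to be transcribed. Myog drives the differentiation of committed myoblasts into contractile cells, while Myf6 acts both early, beside Myf5, and later in differentiating fibres. All 4 proteins pair with E proteins and bind the E-box, and they act together with MEF2 proteins on the genes of the contractile apparatus. Pax3 lies upstream of Myf5 in the somite, which is why the members are of interest where a stronger form of PAX3 replaces it.

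The 250 bases upstream of the transcription start (RefSeq, GRCm38.p6) are shown for Myf5 and Myog, the only members for which a window was found. These members moved in opposite directions, and the Myog window is a textbook muscle promoter. Capitals mark E-boxes (CANNTG), the core of the MEF2 motif (TA, 4 bases that are each A or T, then TA) and the TCAGGTT letters of the motif that Six4 and its relatives bind, searched on both strands. The Myf5 window lies at chr10:107486135-107486384 on the minus strand and the Myog window at chr1:134289754-134290003 on the plus strand.
Myf5: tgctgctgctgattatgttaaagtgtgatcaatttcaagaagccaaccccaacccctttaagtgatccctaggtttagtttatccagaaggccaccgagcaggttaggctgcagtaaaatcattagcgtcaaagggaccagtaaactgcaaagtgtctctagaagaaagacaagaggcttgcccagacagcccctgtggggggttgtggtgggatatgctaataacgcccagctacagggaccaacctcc
Myog: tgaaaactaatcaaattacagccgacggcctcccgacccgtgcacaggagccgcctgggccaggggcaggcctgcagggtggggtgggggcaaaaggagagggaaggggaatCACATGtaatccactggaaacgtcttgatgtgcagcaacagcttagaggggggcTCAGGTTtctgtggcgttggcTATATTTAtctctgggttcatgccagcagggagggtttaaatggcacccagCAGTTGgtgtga
The Myog window held 2 E-boxes, CACATG from 138 to 133 bases and CAGTTG from 12 to 7 bases before the start, while at least 1 E-box stood in 66.2% and at least 2 in 31.8% of all 32851 windows of this length. It also held the MEF2 core, from 63 to 56 bases before the start, which was present in 8.56% of the windows. The TCAGGTT letters, from 84 to 78 bases before the start, were present in 3.49%. None of these letters overlapped another, and none of the motifs was found in the Myf5 window.

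The arrays were alike in scale. The median log2 value of an array lay between 4.63 and 4.68, its 25th percentile between 3.48 and 3.53, and arrays of a group correlated at 0.996 to 0.998 over all probe sets. Pax3 itself, the targeted gene, read 8.25, 8.31 and 8.30 in PAX3FKHR samples, 9.06, 9.29 and 9.24 in GFP+ samples and 4.48, 4.82 and 4.20 in GFP- samples. Which Pax3 alleles this probe set reads was not tested. Of 9 dermomyotome markers measured, 8 were higher in GFP+ than in GFP- cells, and so were 6 of 7 markers of neural crest, which also expresses Pax3, where 1.92% of all genes were higher. The 8 include Pax3, whose GFP allele was the basis of the sort. Values are log2 intensities after robust multichip averaging (RMA). A probe set was called at an adjusted p under 0.05 (limma, Benjamini-Hochberg over all probe sets) with a log2 difference of at least 0.5 in size.

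Myf5 was the only member that was higher in PAX3FKHR than in GFP+ cells. Its log2 values were 8.67, 8.85 and 8.87 in PAX3FKHR samples, 7.98, 7.92 and 7.83 in GFP+ samples and 2.83, 2.66 and 2.47 in GFP- samples. The 3 groups did not overlap, and the GFP- values stood below the 25th percentile of their arrays. The means were 8.80 ± 0.112 in PAX3FKHR cells, 7.91 ± 0.0748 in GFP+ cells and 2.65 ± 0.181 in GFP- cells (SD, n = 3 each).

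Myog, the differentiation factor, showed another order. It read 7.15, 7.29 and 7.18 in PAX3FKHR samples, 8.21, 8.57 and 8.53 in GFP+ samples and 3.77, 3.51 and 4.04 in GFP- samples. All PAX3FKHR values lay between those of the GFP+ and the GFP- samples, and GFP+ replicate 1 was the lowest of its group. The means were 7.21 ± 0.0722 in PAX3FKHR cells, 8.44 ± 0.199 in GFP+ cells and 3.77 ± 0.264 in GFP- cells (SD, n = 3 each).

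Myf6 followed the order of Myog at lower values. Its probe set read 5.90, 5.96 and 5.96 in PAX3FKHR samples, 7.03, 7.23 and 7.09 in GFP+ samples and 4.62, 4.26 and 4.47 in GFP- samples. The groups were again separate, with means of 5.94 ± 0.0318 in PAX3FKHR cells, 7.12 ± 0.10 in GFP+ cells and 4.45 ± 0.184 in GFP- cells (SD, n = 3 each). The GFP- values of Myf6 lay below the range of the array medians.

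Myod1 spanned the smallest range of the 4 genes, above the array medians in PAX3FKHR and GFP+ cells and below them in GFP- cells. Probe set 1418420_at read 4.69, 4.82 and 4.69 in PAX3FKHR samples, 5.10, 4.69 and 4.88 in GFP+ samples and 4.51, 3.89 and 4.24 in GFP- samples. The PAX3FKHR and GFP+ samples overlapped, whereas both lay above every GFP- sample. Its means were 4.73 ± 0.0771 in PAX3FKHR cells, 4.89 ± 0.207 in GFP+ cells and 4.21 ± 0.313 in GFP- cells (SD, n = 3 each).

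The second Myod1 probe set, 1447675_x_at, was dim everywhere. It read 2.61, 2.68 and 2.62 in PAX3FKHR samples, 2.70, 2.74 and 2.62 in GFP+ samples and 2.57, 2.58 and 2.58 in GFP- samples, below the 25th percentile of every array. Levels of different probe sets cannot be set against each other, so the order of the members within a group is not read from these values.

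**Figure D1:**
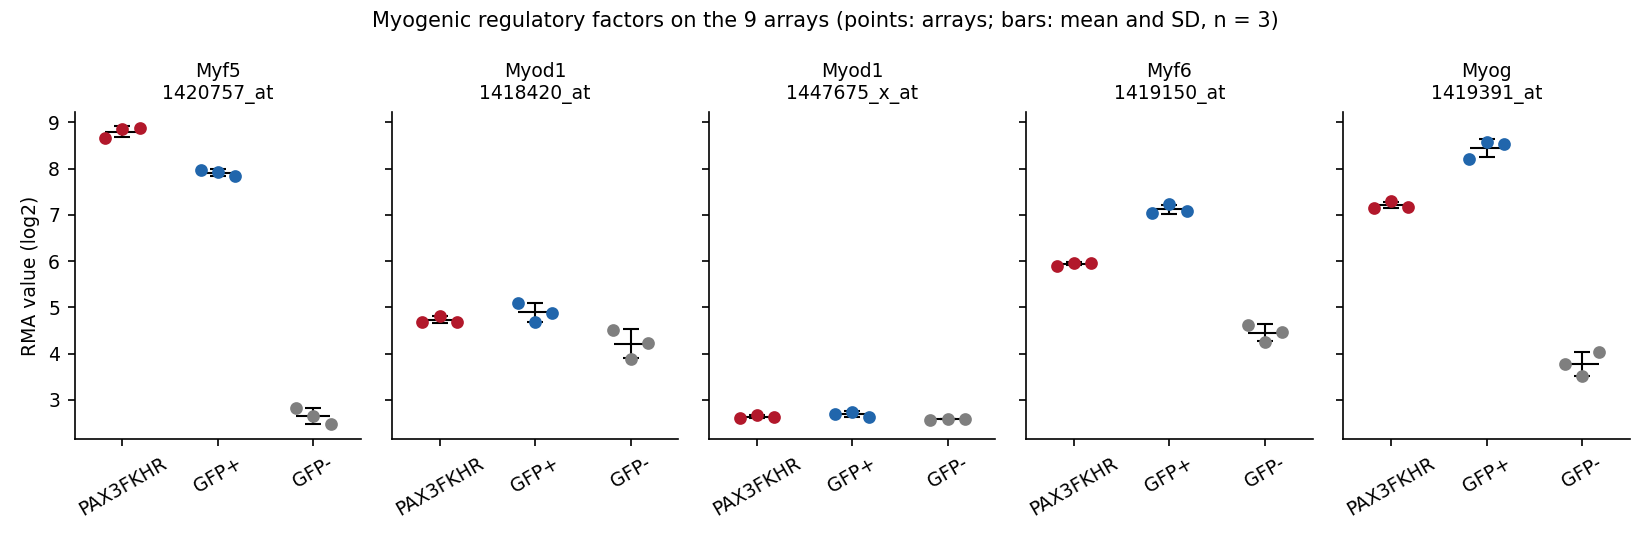
Log2 RMA values (vertical axis) of the 5 member probe sets in PAX3FKHR, GFP+ and GFP- cells. Points are arrays and bars are the mean with its SD (n = 3): Myf5 is highest in PAX3FKHR cells (8.80), Myf6 and Myog are highest in GFP+ cells (7.12 and 8.44), and Myod1 spans less than the other genes.

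The comparison of PAX3FKHR with GFP+ cells asks how RNA levels differ between the genotypes among cells sorted by GFP. Marker lists of the sorted cells also differed between these groups, as given below. Of the 5 member probe sets 3 were called, against 1.36% of all probe sets, and the same 3 were those whose groups did not overlap, which held for 13.1% of all probe sets. Myf5 rose 1.85-fold, a log2 difference of 0.89 (95% confidence interval 0.70 to 1.08, adjusted p = 0.000283, limma). Myog fell to 42.6% of its GFP+ intensity, a log2 difference of -1.23 (interval -1.46 to -1.0, adjusted p = 0.000115). Myf6 fell to 44.3%, a log2 difference of -1.18 (interval -1.36 to -0.99, adjusted p = 3.31e-05).

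Myod1 did not pass, with a log2 difference of -0.15 and an interval of -0.41 to 0.10 (adjusted p = 0.749) for probe set 1418420_at. That interval keeps its intensity in PAX3FKHR cells between 75.4% and 107% of that in GFP+ cells. Its values lie near the array medians, so the interval bounds probe intensity and not the amount of transcript. Probe set 1447675_x_at gave -0.05 (interval -0.19 to 0.09, adjusted p = 0.874). In a bulk sample, fewer cells that express a gene and less RNA per cell cannot be told apart.

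**Figure D2:**
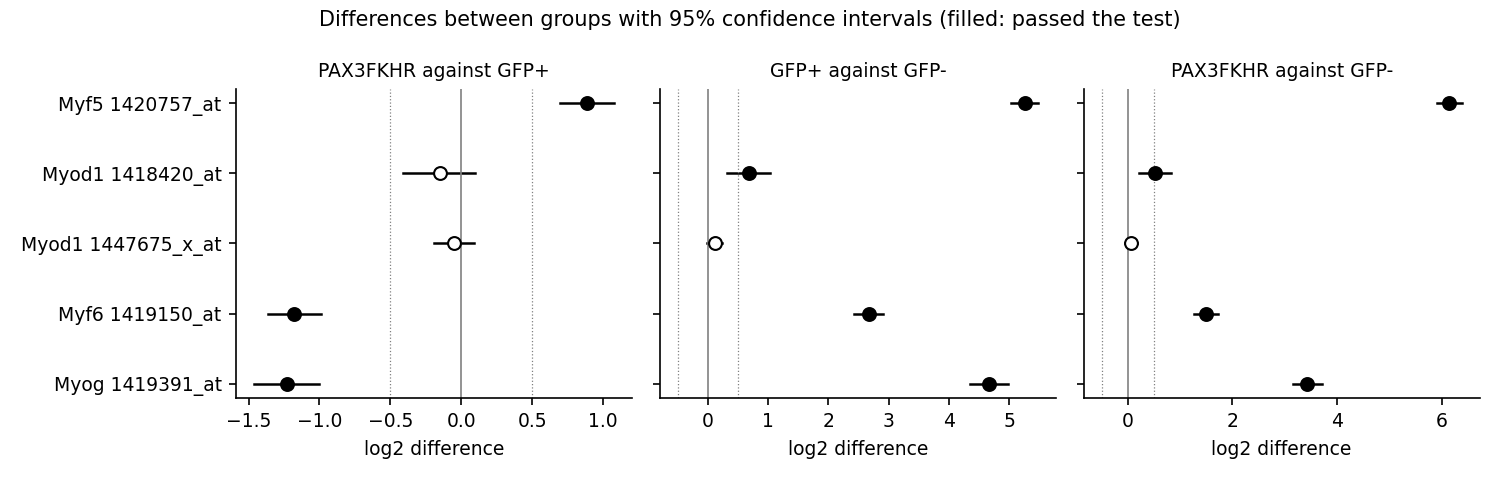
Log2 differences (horizontal axes, on different scales) of the member probe sets in the 3 comparisons, with 95% confidence intervals, where dotted lines stand at 0.5 on either side of 0. Filled points passed the test: Myf5 at 0.89 and Myf6 and Myog at -1.18 and -1.23 in PAX3FKHR against GFP+, and every probe set but 1447675_x_at against GFP- cells.

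Differences between members on the same array gave the relative shifts. Myf5 minus Myog was 1.52, 1.56 and 1.70 in PAX3FKHR samples and -0.23, -0.65 and -0.70 in GFP+ samples, a shift of 2.12. Myf5 minus Myf6 shifted by 2.07, at 2.77, 2.89 and 2.92 in PAX3FKHR samples against 0.94, 0.70 and 0.74 in GFP+ samples. Between Myf6 and Myog the shift was small. Myf6 minus Myog was -1.25, -1.33 and -1.22 in PAX3FKHR samples and -1.18, -1.34 and -1.44 in GFP+ samples, a shift of 0.05.

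Against Myod1, which did not pass on its own, the shifts were close in size to the differences of the other members: 1.04 for Myf5 minus Myod1, 1.02 for Myod1 minus Myf6 and 1.08 for Myod1 minus Myog. Of the 6 pairs, 5 kept the 2 groups apart, each with an exact two-sided permutation p of 0.1, the smallest that 3 against 3 allows, and an adjusted p of 0.12 over the 6 pairs. This test could therefore not bring any pair past the threshold, and the Myf6 and Myog pair had p = 0.6 in the same exact test.

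**Figure D3:**
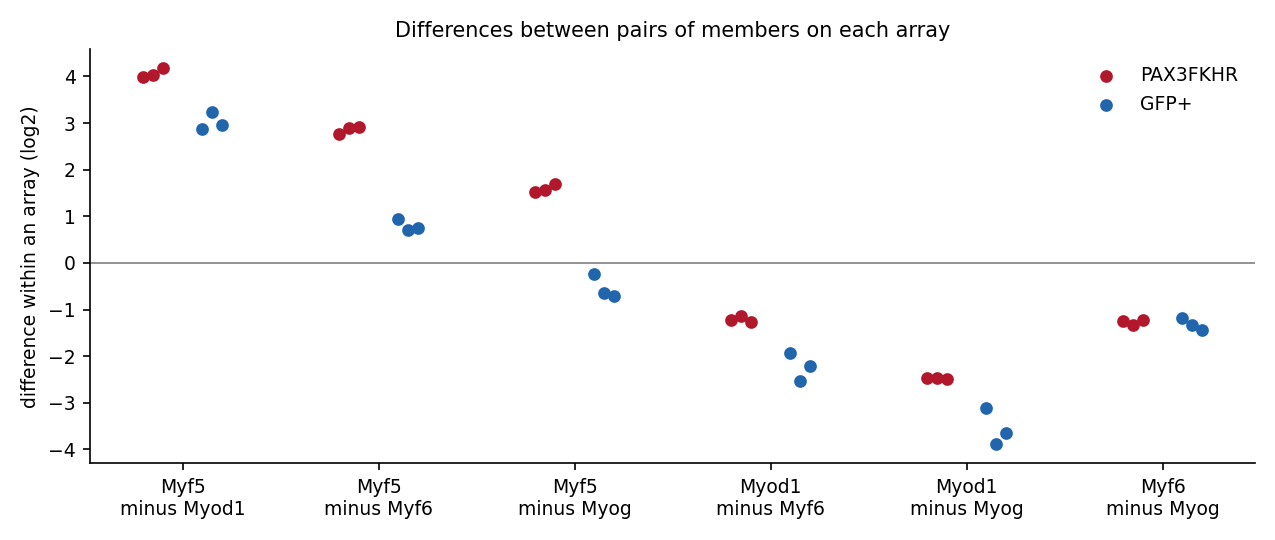
Log2 difference between 2 members on each array (vertical axis) for the 6 pairs, in PAX3FKHR and GFP+ samples (1 point per array, 3 per group). The groups are apart in 5 pairs, with the widest shift for Myf5 minus Myog (2.12), and overlap for Myf6 minus Myog (0.05).

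Against the GFP- cells, the comparison shows which genes mark the Pax3-expressing population. In GFP+ against GFP- cells, 4 of the 5 member probe sets were called higher (4.65% of all probe sets were called in either direction) and all 5 had groups that did not overlap (23.0% of all). Myf5 had a log2 difference of 5.26 (interval 5.03 to 5.48, adjusted p = 1e-09). Since its GFP- values lay below the 25th percentile of their arrays, they were also raised to that percentile, a floor chosen after the values were seen, which made Myf5 at least 21.3-fold higher in GFP+ cells. Without this floor the fold of Myf5 was 38.2. Myog, to which no floor was applied, was 25.3-fold higher (4.66, interval 4.35 to 4.98, adjusted p = 1.73e-08). Myf6, also without a floor, was 6.35-fold higher (2.67, interval 2.43 to 2.90, adjusted p = 1.06e-07). The GFP- values of Myog and Myf6 lay below the range of the array medians.

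Myod1 passed narrowly in this comparison, at 0.68 (interval 0.32 to 1.03, adjusted p = 0.0257) for probe set 1418420_at. The second probe set gave 0.11 (adjusted p = 0.314). Without GFP+ replicate 1 or 3 or GFP- replicate 2 or 3 the Myod1 call was lost (adjusted p = 0.0978, 0.107, 0.107 and 0.103), at log2 differences of 0.57, 0.68, 0.51 and 0.69.

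PAX3FKHR cells were also set against GFP- cells, a comparison that shares its GFP- arrays with the one above. Again 4 of 5 probe sets were called higher, where 5.35% of all probe sets were called, and 5 of 5 did not overlap, as did 21.5% of all. Myf5 stood at least 39.4-fold above GFP- cells by the same floor (log2 difference without it 6.14, interval 5.91 to 6.38, adjusted p = 3.34e-11). With no floor applied, Myog stood 10.8-fold above GFP- cells (3.43, interval 3.16 to 3.71, adjusted p = 9.35e-09) and Myf6 2.81-fold (1.49, interval 1.26 to 1.72, adjusted p = 1.91e-06).

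Myog and Myf6 thus remained above GFP- cells although they fell against GFP+ cells. Myod1 was 1.44-fold higher (0.52, interval 0.22 to 0.83, adjusted p = 0.0396), close to the size limit of 0.5. Its call was lost in 5 of the 6 fits that left out a sample, where the difference ran between 0.36 and 0.67. The exception was the fit without GFP- replicate 1.

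The dimer partners of the members are the E proteins, and of their genes Tcf3 read 9.42, 9.46 and 9.81 in PAX3FKHR samples against 9.23, 9.53 and 9.54 in GFP+ samples. Its difference was 0.13 (adjusted p = 0.814), and Tcf4 and Tcf12, the other E proteins, had 0.17 and 0.22 without passing. Of the MEF2 genes only Mef2c, whose product acts with myogenin, was called.

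Mef2c read 8.00, 7.94 and 8.13 in PAX3FKHR samples, 8.66, 8.56 and 8.68 in GFP+ samples and 7.49, 7.46 and 7.54 in GFP- samples. Like Myog and Myf6 it lay between the GFP+ and GFP- groups, with a fall of 0.61 against GFP+ cells (adjusted p = 0.00284). The mean over all its probe sets gave -0.47, under the size limit. Of 7 partners 1 was thus called lower and 6 were not called in PAX3FKHR against GFP+ cells, where 1.31% of all genes were called higher and 0.715% lower, and the median difference was 0.05 against 0.00 over all genes.

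Among 18 measured upstream regulators of the members 1 was called higher and 1 lower in PAX3FKHR against GFP+ cells (median 0.05). Of all genes 1.31% were called higher and 0.715% lower. Pax7, the paralogue of Pax3 in muscle progenitors, read 8.03, 8.15 and 8.21 in PAX3FKHR samples, 7.52, 7.34 and 7.53 in GFP+ samples and 4.10, 4.02 and 4.19 in GFP- samples. It rose by 0.67 (adjusted p = 0.0022), in the same order of groups as Myf5. The lower regulator was Pax3, which fell by 0.91 (adjusted p = 0.000215). It is the targeted gene, and the study treats its fall as a control.

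Dmrt2, which acts between Pax3 and Myf5 in the somite, had a difference of 0.53 that missed the threshold (adjusted p = 0.0551, limma). It passed in 4 of 13 alternatives, and over all 13 the adjusted p ran from 0.0151 to 0.271. The study itself lists Dmrt2 among the genes that were higher in somites with PAX3-FKHR. Six2 and Six4, of the family that binds the TCAGGTT letters, had 0.22 and 0.05 and did not pass. In GFP+ against GFP- cells 7 of these 18 regulators were higher and 2 lower, where 1.92% of all genes were called higher and 5.05% lower. Among the higher genes were Pax3 (4.70), whose GFP allele was the basis of the sort, Meox2 (3.85), Pax7 (3.36) and Dmrt2. By the floor used for Myf5, Dmrt2 was at least 42.3-fold higher. In PAX3FKHR against GFP- cells the counts were again 7 higher and 2 lower, beside 2.63% and 5.20% of all genes. Pax3 was again among the higher ones.

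Of 27 genes known to hold the members back, 5 were called higher in PAX3FKHR than in GFP+ cells and the other 22 were not called. The median was 0.09, and of all genes 1.31% were called higher and 0.715% lower. The study had already reported these 5 (Mbnl3, Id4, Hes1, Hdac5 and Id1) as higher with PAX3-FKHR. The list was written with such results known, so its count is a description and no independent support. The largest rise was that of Mbnl3, whose product opposes muscle differentiation. It read 8.01, 8.16 and 8.14 in PAX3FKHR samples, 6.76, 6.42 and 6.57 in GFP+ samples and 7.61, 7.40 and 7.48 in GFP- samples, a rise of 1.52 (adjusted p = 2.09e-05). Mbnl3 was lowest in the GFP+ cells, the group in which Myog and Myf6 were highest.

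Id4, one of the Id proteins that take E proteins away from the members, was also lowest in GFP+ cells. It read 8.28, 8.54 and 8.81 in PAX3FKHR samples, 7.27, 7.27 and 7.32 in GFP+ samples and 8.72, 8.82 and 8.80 in GFP- samples, so that PAX3FKHR cells stood 1.26 above GFP+ cells (adjusted p = 0.000256). Id1 rose by 0.65 (adjusted p = 0.00499). Id2 and Id3 had 0.37 and 0.42 and did not pass, although the mean over the probe sets of Id2 reached 0.56 and passed.

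Hes1, a Notch target that represses myogenic genes, was highest in PAX3FKHR cells. It read 10.79, 10.85 and 11.02 there, 10.20 in each of the GFP+ samples and 9.71, 9.58 and 9.59 in GFP- samples, a rise of 0.68 against GFP+ cells (adjusted p = 0.00164). Hdac5, a class II histone deacetylase that binds MEF2 proteins, rose by 0.66 (adjusted p = 0.00142), with values of 8.17, 8.32 and 8.35 in PAX3FKHR samples, 7.61, 7.65 and 7.60 in GFP+ samples and 7.98, 7.90 and 7.78 in GFP- samples.

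The list of antagonists holds genes of several tissues. In GFP+ against GFP- cells 2 of the 27 were higher and 8 lower, beside 1.92% and 5.05% of all genes. The lower genes included Tcf21 (-4.13), a factor of lateral mesoderm, and Msx1 and Msx2 (-1.96 and -2.15). Against GFP- cells, PAX3FKHR cells had 4 higher and 6 lower, beside 2.63% and 5.20% of all genes.

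Of 19 measured cofactors of the members, 18 were not called in PAX3FKHR against GFP+ cells (median 0.01). The remaining 1 was called higher, beside 1.31% of all genes. This was Vgll3, a partner of TEAD proteins, which read 6.69, 7.08 and 7.05 in PAX3FKHR samples, 5.63, 5.61 and 5.63 in GFP+ samples and 3.79, 3.53 and 3.50 in GFP- samples. Its difference of 1.31 (adjusted p = 0.000105) followed the order of groups seen for Myf5. Meis1 and Meis2, which help MyoD to reach closed chromatin, had -0.14 and 0.02 in their brightest probe sets and did not pass. The study itself lists Meis1 among the genes that were lower in somites with PAX3-FKHR.

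**Figure D4:**
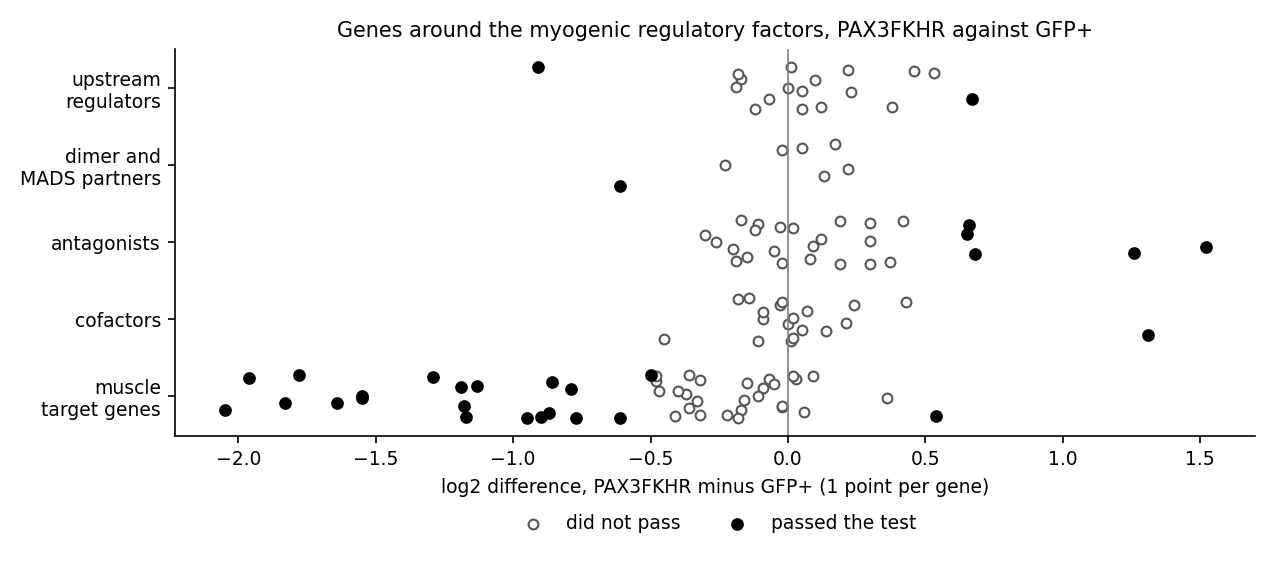
Log2 difference between PAX3FKHR and GFP+ cells (horizontal axis) for each measured gene of 5 groups around the members (rows), with filled points for genes that passed the test. Called antagonists lie only to the right (5 of 27, up to 1.52 for Mbnl3) and called muscle target genes mostly to the left (20 of 48, down to -2.05 for Tnnc2). The lists were written with earlier results of these data known.

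Of 48 genes that the members activate in differentiating muscle, 20 were called lower in PAX3FKHR than in GFP+ cells. Of the others, 1 was called higher and 27 were not called, where 0.715% of all genes were called lower and 1.31% higher. The median was -0.41 against 0.00 over all genes. The study had already reported myosins and troponins as lower with PAX3-FKHR. This list too was written with such results known, so its count is a description. Tnnc2, fast skeletal troponin C, read 6.43, 6.68 and 6.58 in PAX3FKHR samples, 8.51, 8.60 and 8.73 in GFP+ samples and 3.64, 3.40 and 3.73 in GFP- samples. Myh3, the embryonic myosin heavy chain, read 6.50, 6.72 and 6.72 in PAX3FKHR samples, 8.67, 8.61 and 8.53 in GFP+ samples and 3.13, 3.24 and 3.2 in GFP- samples.

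Tnnc2 and Myh3 thus had the order of Myog and Myf6, with falls of 2.05 and 1.96 against GFP+ cells (adjusted p = 2.58e-06 for both) that were larger in size than those of the members. Tnni1, slow skeletal troponin I, differed from these in its GFP- samples: it read 6.05, 6.26 and 6.17 in PAX3FKHR samples, 7.87, 8.00 and 7.94 in GFP+ samples and 8.05, 7.80 and 7.82 in GFP- samples. Unc45b, a chaperone of myosin, likewise read 3.88, 4.37 and 4.25 in PAX3FKHR samples, 5.90, 6.05 and 6.03 in GFP+ samples and 6.42, 5.94 and 6.09 in GFP- samples. They fell by 1.78 and 1.83 in PAX3FKHR against GFP+ cells (adjusted p = 3.72e-06 and 2.76e-05), while their GFP+ and GFP- samples overlapped.

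The gene of the list that was called higher was Cdh15, M-cadherin of muscle progenitors and satellite cells. It read 7.47, 7.49 and 7.59 in PAX3FKHR samples, 6.89, 6.99 and 7.04 in GFP+ samples and 4.55, 4.38 and 4.76 in GFP- samples, the order of Myf5. Its rise of 0.54 (adjusted p = 0.00554, limma) lost its call when PAX3FKHR replicate 2 was left out (adjusted p = 0.052) and when GFP+ replicate 2 was left out (adjusted p = 0.0502). The call was also lost with a local pooled error test (adjusted p = 0.0901). That test was written anew after the study's methods and ran without their filter on absent calls. Chrna1 and Chrnb1, subunits of the muscle acetylcholine receptor, had -0.41 and 0.09 and did not pass.

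In GFP+ against GFP- cells 20 of the 48 target genes were higher, 2 lower and 26 not called. Of all genes 1.92% were called higher and 5.05% lower. The 2 lower genes were Myl4 (-1.03) and Myh7 (-0.85), which the embryonic heart also expresses. Of 7 heart muscle markers 6 were lower in GFP+ than in GFP- cells, among them Myl7, atrial myosin light chain, at 4.82 in GFP+ and 8.08 in GFP- cells.

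The summed intensity of the heart list was 120 to 134 in PAX3FKHR samples, 139 to 140 in GFP+ samples and 747 to 798 in GFP- samples. The part of heart RNA in the GFP- levels of the target genes was not tested. In PAX3FKHR against GFP- cells 11 target genes were higher and 7 lower, beside 2.63% and 5.2% of all genes. The lower ones included Myh7 (-2.49), Myl4 (-2.20), Unc45b (-1.98) and Tnni1 (-1.73).

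**Figure D5:**
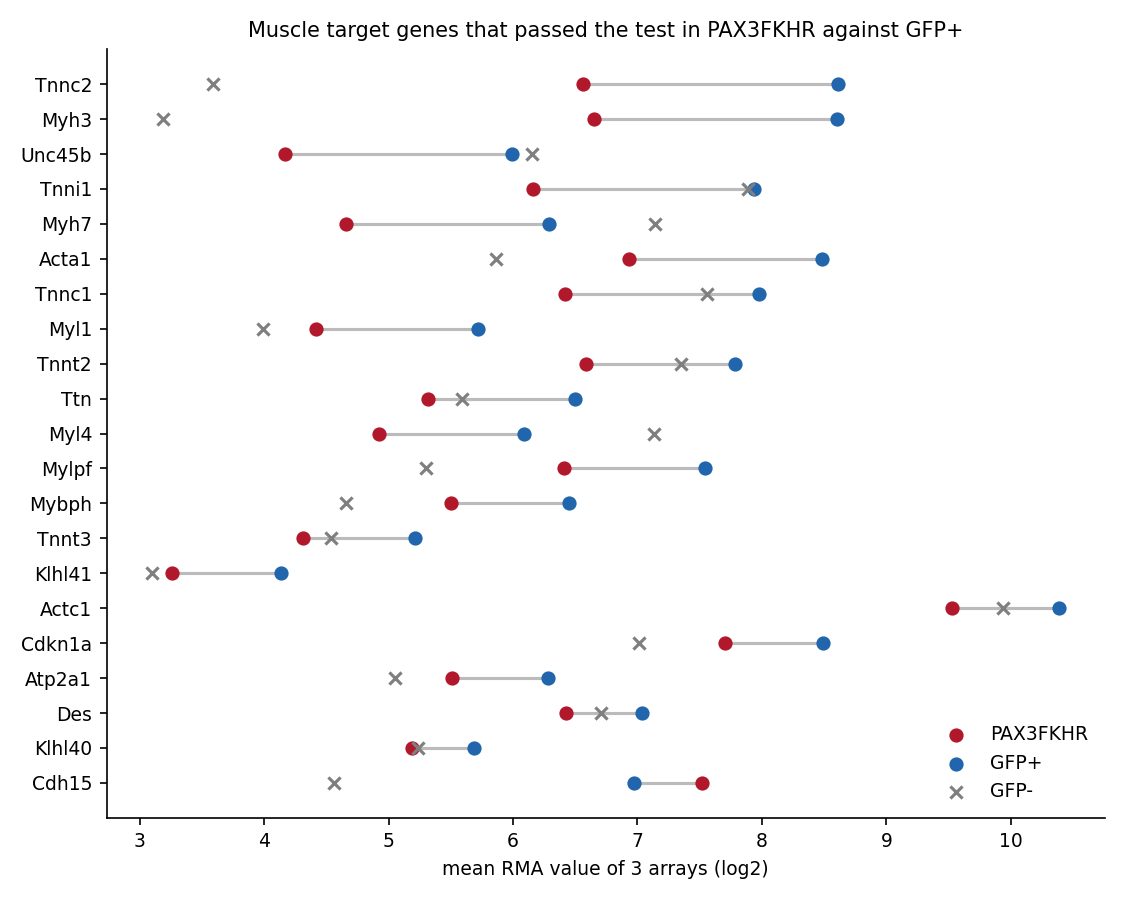
Mean log2 RMA value (horizontal axis, 3 arrays) in PAX3FKHR, GFP+ and GFP- cells of the 21 muscle target genes that passed the test in PAX3FKHR against GFP+. PAX3FKHR lies left of GFP+ for 20 genes, Cdh15 is the exception (7.52 against 6.97), and Myh7 and Myl4 are highest in GFP- cells (7.14 and 7.13).

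Markers of the sorted cells moved beside the members. For the counts that follow, 1.31% of all genes were called higher in PAX3FKHR than in GFP+ cells and 0.715% lower. Of 9 dermomyotome markers 3 were higher in PAX3FKHR than in GFP+ cells, namely Met (1.70), Lbx1 (1.42) and Tcf15 (0.92), and 2 were lower, Pax3 and Sim1 (-0.66). Their summed intensity was 4210 to 5215 in PAX3FKHR samples, 3865 to 4042 in GFP+ samples and 507 to 555 in GFP- samples. Of 7 neural crest markers 1, Tfap2b (0.59), was higher in PAX3FKHR than in GFP+ cells and 6 were not called, with sums of 2921 to 3531 in PAX3FKHR samples, 2588 to 2695 in GFP+ samples and 849 to 900 in GFP- samples.

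Of 7 sclerotome markers, Uncx was higher (0.73) and Pax1 and Foxc2 were lower (-0.57 and -0.56) in PAX3FKHR against GFP+ cells, with sums of 1629 to 1926 in PAX3FKHR samples, 2132 to 2221 in GFP+ samples and 461 to 479 in GFP- samples. Of 9 neural tube markers, Dbx1 was higher (2.38) and Neurog2 was lower (-0.78), with sums of 1876 to 2262 in PAX3FKHR samples, 1217 to 1266 in GFP+ samples and 1811 to 1886 in GFP- samples. The sums of 6 primitive erythroid markers were 1937 to 2250 in PAX3FKHR samples, 1391 to 1461 in GFP+ samples and 36215 to 36467 in GFP- samples, with Hbb-y called higher (0.65). Those of 6 lateral mesoderm markers were 517 to 657 in PAX3FKHR samples, 412 to 432 in GFP+ samples and 1843 to 1879 in GFP- samples, with Prrx1 called higher (0.65). The sums of the dermomyotome, neural crest, neural tube, primitive erythroid and lateral mesoderm lists were higher in PAX3FKHR than in GFP+ samples without overlap. The median log2 differences of these lists were 0.46, 0.23, 0.20, 0.21 and -0.09 in that order. Bright genes weigh most in a sum, and the lateral mesoderm sum rose although the median of its genes did not. The sums of the sclerotome and heart muscle lists were lower, also without overlap (medians of -0.26 and -0.13). The part of the makeup of the sorted cells in the differences of the members was not tested.

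The genes whose profile over the 9 arrays was most like that of each member were sought among 690 genes whose group means spanned at least 1. For Myf5 these were Fap, Uncx, Pax7, Meox2 and Dmrt2, with Pearson correlations of 0.997 to 0.999. Fap, a cell surface protease, had means of 10.32 in PAX3FKHR, 9.38 in GFP+ and 5.03 in GFP- cells. All 5 had their highest mean in PAX3FKHR cells and their lowest in GFP- cells, as Myf5 did.

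For Myf6 the list was Tnnc2, Ebf2, Myh3, Sim1 and Foxd1 (0.987 to 0.997), and for Myog it was Tnnt1, Pax1, Fmod, Cnp and Ebf2 (0.991 to 0.996). Each of these had its highest mean in GFP+ cells. Ebf2 stood in both lists, with means of 7.49 in PAX3FKHR, 8.12 in GFP+ and 6.38 in GFP- cells. The list of Myod1 (Lrig3, Ddit4l, Cnksr3, Chst1 and Macrod2) had lower correlations, 0.877 to 0.909. The correlations rest on 3 groups of 3 arrays and mostly reflect the group means, so they are descriptions over points that share a group.

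Myf5 and Myf6 are direct neighbours on chromosome 10 (RefSeq, GRCm38.p6), with no other protein-coding gene between them, and their differences between PAX3FKHR and GFP+ cells had opposite signs (0.89 and -1.18). Lin7a, the protein-coding neighbour on the other side of Myf5, was chosen after its values were seen. It averaged 6.11 in PAX3FKHR cells, 5.49 in GFP+ cells and 5.18 in GFP- cells, a rise of 0.62 against GFP+ cells (adjusted p = 0.0064). Near Myog on chromosome 1 lies Mybph, a myosin binding protein of the target list, with Adora1 between them. Mybph averaged 5.50 in PAX3FKHR cells, 6.45 in GFP+ cells and 4.66 in GFP- cells, the order of Myog. Kcnc1 and Otog, the neighbours of Myod1, had -0.10 and -0.09 in PAX3FKHR against GFP+ cells and did not pass.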

How the data were processed

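RNA of sorted cells was amplified in 2 cycles and read on 9 Affymetrix whole-genome mouse arrays, 3 per group. The authors processed the arrays with RMA (background correction, scaling of the intensity distributions and summary of probes) and deposited the log2 values used here, which hide any shift common to all genes. The RMA version is not given in the sources used here. After 64 control probe sets were left out, 45037 remained, and limma 3.58.1 (under R 4.3.3) was fitted to them (intensity trend, the 2 groups compared, two-sided, Benjamini-Hochberg over all probe sets). The size limit of 0.5 follows the study's methods. The methods' filter on absent calls was not applied, and their local pooled error test was written anew as an alternative. Precision is limited by 3 arrays per group, and an array has no sequencing depth.

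Gene symbols came from the platform annotation: 34945 probe sets had 1 symbol, 932 had several and 9160 were unnamed. A gene was read from its brightest probe set with a single symbol, and 1 written symbol was matched through another name. Named genes were the 4 members, of each gene list up to 4 called genes with the largest rise and up to 4 with the largest fall in PAX3FKHR against GFP+, the first 2 that were measured and not called, the 5 genes most like each member, and markers. Lists gave counts and medians and no test of their own. The members and lists were chosen with earlier results of these data known. Promoter windows came from RefSeq (GRCm38.p6) and were found for 2 of the 4 members. The fits were tested on simulated data. Alternatives were a fit without the intensity trend, 1 fit of all samples, a replicate block, the local pooled error test, centring of arrays, a filter on dim probe sets, the mean over the probe sets of a gene, and leaving out each sample.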

Additional observations from a re-analysis of the deposited data

How the results depend on the processing

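The directions of Myf5, Myf6 and Myog and their calls held in all 3 comparisons under every alternative. Without 1 sample, PAX3FKHR against GFP+ gave 0.85 to 0.95 for Myf5, -1.22 to -1.12 for Myf6, -1.34 to -1.16 for Myog and -0.25 to -0.05 for Myod1. GFP+ against GFP- gave 5.16 to 5.34 for Myf5, 2.57 to 2.75 for Myf6, 4.53 to 4.80 for Myog and 0.51 to 0.82 for Myod1, whose call was lost in 4 of 6 fits. PAX3FKHR against GFP- gave 6.05 to 6.23 for Myf5, 1.39 to 1.58 for Myf6, 3.30 to 3.57 for Myog and 0.36 to 0.67 for Myod1, whose call was lost in 5 of 6 fits and with the local pooled error test (0.45). These fits have fewer samples. Pairs of members whose groups stayed apart numbered 5 to 6.

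Probe sets called in PAX3FKHR against GFP+ numbered 611, and 358 to 578 without 1 sample, with the fewest without PAX3FKHR replicate 2 (358) and GFP+ replicates 2 (383) and 3 (386). The counts were 1963 to 2056 in GFP+ against GFP- and 2267 to 2455 in PAX3FKHR against GFP-, against 2095 and 2411 in all samples. Samples with the same replicate number did not deviate together over all probe sets (correlations of -0.0957 to 0.105). The labels state no pairing, and these correlations cannot exclude one. With a replicate block 603, 2122 and 2451 probe sets were called in PAX3FKHR against GFP+, GFP+ against GFP- and PAX3FKHR against GFP-, and no call of a member changed.

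Among the named genes, on which the alternatives were run gene by gene, the sign turned for genes that were called in neither fit: with the local pooled error test Tcf3 had -0.07 in PAX3FKHR against GFP+ and Id2 0.00 in GFP+ against GFP-, and with the mean over probe sets Meis2 had -0.04 in PAX3FKHR against GFP+ and Meis1 0.03 in GFP+ against GFP-. Fits without 1 sample ran from -0.04 to 0.14 for Meis2 and -0.05 to 0.10 for Msgn1 in PAX3FKHR against GFP+, and from -0.16 to 0.03 for Tcf3, -0.05 to 0.00 for Id2, -0.05 to 0.09 for Id3 and -0.14 to 0.00 for Neurog1 in GFP+ against GFP-. Muscle target genes called lower in PAX3FKHR against GFP+ numbered 18 to 20 under all alternatives. Of the list counts under the alternatives 447 stayed within 1.5 times the value given and 21 did not. The probe sets of Myod1 lie near or below the array median, where small differences are hard to see.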

Other observations

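Other tissue-specific bHLH genes, which share the DNA-binding fold of the members, were also compared. Of 34 measured, 3 were called higher and 1 lower in PAX3FKHR against GFP+ cells, beside 1.31% and 0.715% of all genes (median -0.03). Neurog1, a determination factor of sensory neurons, read 6.99, 7.04 and 6.94 in PAX3FKHR samples, 5.90, 5.88 and 5.84 in GFP+ samples and 5.99, 6.05 and 5.75 in GFP- samples, a rise of 1.11 (adjusted p = 3.19e-05, limma). Tcf15 (paraxis), needed for the epithelial somite, read 10.24, 10.45 and 10.58 in PAX3FKHR samples, 9.47, 9.53 and 9.51 in GFP+ samples and 5.91, 6.23 and 6.22 in GFP- samples, the order seen for Myf5. It rose by 0.92 (adjusted p = 0.000485).

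Nhlh2, expressed in developing neurons, averaged 5.62 in PAX3FKHR cells, 4.85 in GFP+ cells and 6.49 in GFP- cells and rose by 0.76 against GFP+ cells (adjusted p = 0.00104). The study's table of genes changed in both somites and forelimbs marks Nhlh2 as lower, the other direction. Neurog2 averaged 6.29 in PAX3FKHR cells, 7.07 in GFP+ cells and 8.35 in GFP- cells, and its fall of 0.78 (adjusted p = 0.0103) lost its call without any of the 3 GFP+ samples in turn. Msgn1 and Mesp1, factors of presomitic mesoderm, had 0.04 and -0.06 and did not pass. In GFP+ against GFP- cells 2 of the 34 were higher, Tcf15 (3.38) and Olig3 (1.13), and 10 were lower, among them Hand2 of lateral mesoderm and heart (-4.51). Of all genes 1.92% were called higher and 5.05% lower.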
